A study of Drosophila melanogaster with 3 samples.

Results

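The 48 genes described here encode subunits of the Drosophila melanogaster proteasome and their testis paralogs. They were chosen by symbol, as the protein-coding genes whose FlyBase symbol starts with Prosalpha, Prosbeta, Rpn or Rpt followed by a digit, and they are 48 of the 13945 protein-coding genes on the 6 chromosome arms used. Of the 48, 32 are general subunits and 16 are paralogs, whose symbol carries an added T or R. The rule on symbols leaves out Sem1, a small lid subunit, which is given at the end with other genes of the pathway. The study mapped the sites of 1 chromatin protein, the product of CG15514, by ChIP-seq with an antibody against GFP in whole embryos of 0 to 24 hours, males and females pooled. All 3 biological replicates came from a transgenic line that stably expresses CG15514 with eGFP at its C-terminal end. They formed 1 group with no second condition, so no test between conditions was possible, and genes are described by counts beside all protein-coding genes. The promoter driving the transgene was not given in the sources used here, and whole embryos resolve no cell type.

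The proteasome degrades proteins marked with ubiquitin. Its core particle is a barrel in which outer rings of alpha subunits guard inner rings of beta subunits, and Prosbeta1, Prosbeta2 and Prosbeta5 carry the proteolytic sites. A regulatory particle caps the barrel: its base holds a ring of ATPases (Rpt subunits) that unfolds substrates, and its lid holds Rpn11, which removes ubiquitin chains. Drosophila also has paralogs of several subunits that are expressed mainly in the male germline, where some replace the general subunit in a proteasome of the testis.

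The promoter sequences below show 1 peak of each subunit class and the strongest paralog peak, so that the sites compared can be read. Each class is shown by its strongest peak outside 1 chromosome arm from which no sequence is printed. Prosalpha7 (core alpha) and Rpn6 (lid), on that arm, had stronger peaks than the genes shown for their class. Each is reference genome sequence (RefSeq, Release 6, the assembly that dm6 names), written 5′ to 3′ on the strand of the gene and centred on the peak summit, reaching at most 60 bp to each side and trimmed to at most 30 annotated UTR bases. Capitals mark an exact match to a searched motif, and all other bases are in lower case. Prosalpha2 (core alpha, chr3R:12431209-12431323, plus strand) has its start site at base 113 of the run, Rpt6R (chr3R:30583684-30583804, minus strand) at base 108 and its general partner Rpt6 (chrX:21315955-21316075, plus strand) at base 98. The runs for Prosbeta7 (core beta, chr3R:5358203-5358232, minus strand), Rpn10 (base, chr3L:21537020-21537049, plus strand) and Rpn3 (lid, chr2L:19051820-19051849, plus strand) lie within the 5′ UTR of the gene. Rpt6 was added after the values were seen.
Prosalpha2: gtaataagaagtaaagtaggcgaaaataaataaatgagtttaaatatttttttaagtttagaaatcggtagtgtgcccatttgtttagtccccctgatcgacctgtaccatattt
Prosbeta7: ctggtatttttagctaccggttgccgatac
Rpn10: cgatattttaatgccgatagttcaggcagc
Rpn3: cctataacatatgagactgaaagttcgctc
Rpt6R: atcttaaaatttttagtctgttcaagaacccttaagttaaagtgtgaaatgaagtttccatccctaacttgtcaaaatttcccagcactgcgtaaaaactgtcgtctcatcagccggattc
Rpt6: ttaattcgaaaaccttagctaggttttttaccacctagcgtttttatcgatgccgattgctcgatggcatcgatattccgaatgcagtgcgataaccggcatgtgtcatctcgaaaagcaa
None of these 6 runs holds a searched motif, although Prosalpha2, Prosbeta7, Rpn3 and Rpt6 have one farther from the summit.

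A further pair, also chosen after the values were seen, sets a general subunit beside its testis paralog. Prosalpha6 (chr2L:10221259-10221379, plus strand, start site at base 93) had a peak and holds the DNA replication-related element (DRE, TATCGATA), the site of the promoter factor DREF, at base 77. Prosalpha6T (chr2L:13231919-13232039, plus strand) had no peak, so its run is the sequence that ends at its start site. Its GC content was 23.1%, against 43.0% in the Prosalpha6 run. The runs span different parts of the promoter, so these values are not directly comparable.
Prosalpha6: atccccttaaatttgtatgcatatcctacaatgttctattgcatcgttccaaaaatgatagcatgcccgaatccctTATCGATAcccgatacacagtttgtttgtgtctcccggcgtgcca
Prosalpha6T: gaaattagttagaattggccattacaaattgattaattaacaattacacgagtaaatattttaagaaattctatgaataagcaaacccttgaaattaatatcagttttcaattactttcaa

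Sites with the core promoter motifs themselves are shown for members whose peak lay near one. The 20-base sites are written on the plus strand of dm6, with the motif in capitals and 6 bases to each side. DRE matches were 7 bp from the summit at Prosbeta2 (chr3L:14999685-14999704), 2 bp at Rpt5 (chr3R:23752824-23752843) and 31 bp at Rpn3 (chr2L:19051860-19051879). Matches to Ohler motif 1 (GGTCACAC), an element of Drosophila core promoters without a TATA box, were 72 bp from the summit at Prosalpha2 (chr3R:12431332-12431351), 45 bp at Prosbeta7 (chr3R:5358257-5358276) and 59 bp at Rpn1 (chr3L:19915044-19915063).
Prosbeta2, DRE: acagtaTATCGATAtttttc
Rpt5, DRE: tgtcacTATCGATAagcgcc
Rpn3, DRE: aaaacgTATCGATAaattga
Prosalpha2, Ohler 1: gcattcGGTCACACtgccgc
Prosbeta7, Ohler 1: tagcttGGTCACACcgtttt
Rpn1, Ohler 1: ccgcgcGGTCACACtgcaaa
Over all members with a match within 100 bp of the summit, the DRE was 2 to 49 bp away (6 members) and Ohler 1 was 45 to 77 bp away (5 members), so the ranges overlapped.

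Most promoters of general subunits carried CG15514-eGFP, and most promoters of the testis paralogs did not. A promoter peak was a summit of the authors' thresholded list within 500 bp of any annotated transcription start site (TSS) of the gene, and 29 of the 48 genes had one (60.4%), against 42.9% of all protein-coding genes. Among the 32 general subunits 25 had a promoter peak, which is 78.1% with a 95% Clopper-Pearson interval of 60 to 90.7%. Among the 16 paralogs 4 had one, which is 25% with an interval of 7.27 to 52.4%. The intervals of the general subunits and of the paralogs did not overlap, and the value of all genes lay below the first and inside the second. These intervals cover counting error over genes alone.

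The same difference stood in each replicate list, in which the 8708 strongest entries were used, as many as the thresholded list holds. In replicate 1, 84.4% of general subunits and 25% of paralogs had a promoter summit, with 43.6% of all genes. In replicate 2 the values were 78.1% and 18.8%, with 42.7% of all genes. In replicate 3 they were 75.0% and 25%, with 42.5% of all genes. The mean over replicates was 79.2% ± 4.77 (SD, n = 3) for general subunits and 22.9% ± 3.61 (SD, n = 3) for paralogs, and the difference of 56.2 ± 5.41 points (SD, n = 3) exceeded the spread between replicates.

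**Figure D1:**
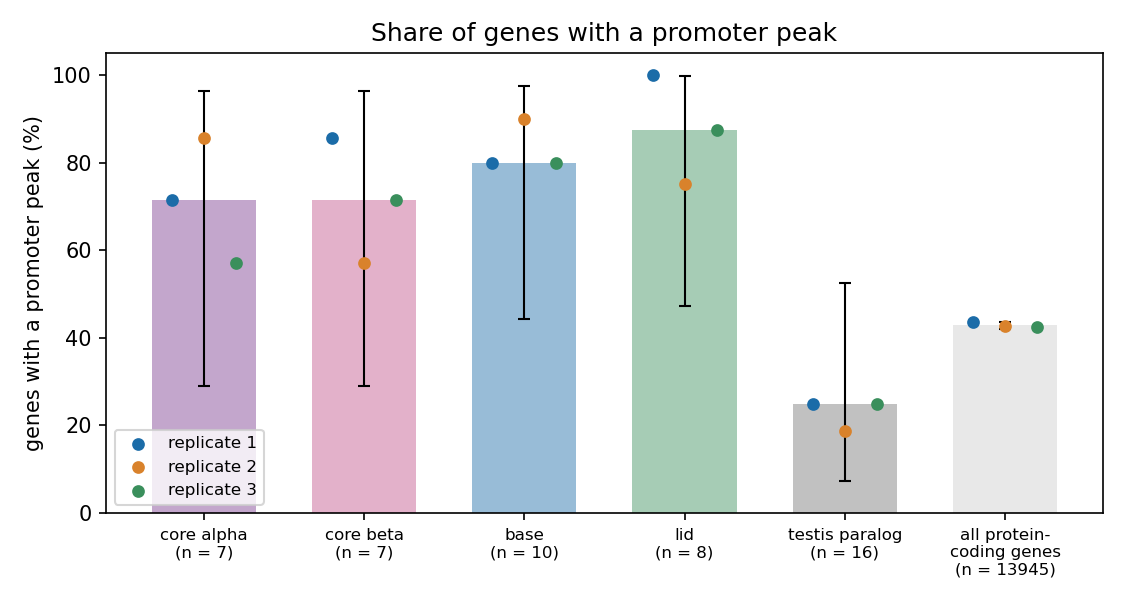
Share of genes with a promoter peak (vertical axis, percent) for the 4 subunit classes, the testis paralogs and all protein-coding genes. Bars give the thresholded list with 95% Clopper-Pearson intervals, and points give the 8708 strongest entries of each replicate list. In every replicate the 4 subunit classes lie above all genes (42.5 to 43.6%) and the paralogs lie below.

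Core subunits had a promoter peak less often by count than lid and base subunits, but the intervals overlapped. Of 14 core subunits 10 had a peak (71.4%, interval 41.9 to 91.6%), and of 18 lid and base subunits 15 had one (83.3%, interval 58.6 to 96.4%). Over the replicate lists the shares were 71.4% ± 7.14 and 85.2% ± 3.21 (SD, n = 3), and lid and base were higher by 10.3, 11.9 and 19.0 points in replicates 1, 2 and 3. A single core gene is worth 7.14 points, so the differences in replicates 1 and 2 are each less than that of 2 genes. Within the particles, 5 of 7 alpha, 5 of 7 beta, 8 of 10 base and 7 of 8 lid subunits had a peak. The median rank by signal over all 14 core genes was 3906.5 and over all 18 lid and base genes 3863.5, where rank 1 is the strongest peak and genes without a peak are placed last, so that presence and strength are read together. With a promoter distance of 250 bp in place of 500 bp these medians were 6360 and 4006.5. In the replicate lists the core median was 3406, 4680 and 3923.5 and the lid and base median 3257, 3522 and 4360, so the order in replicate 3 was the opposite of that in replicates 1 and 2. Among genes with a peak alone, the median rank was 2818 for the core (10 genes, median signal 331.1, highest 30490) and 3733 for lid and base (15 genes, median signal 267.8, highest 566.1), and 2 core genes but no lid or base gene ranked at 1000 or better.

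The peaks of proteasome genes were mostly of middle strength, with 3 exceptions. Among genes with a peak the median signal, a height that the deposited lists give without a stated scale, was 293 for general subunits, 229.7 for paralogs and 314.6 for all protein-coding genes. Rank 1000 or better was reached by 3 of the 48 genes, Prosalpha7, Prosbeta7 and Rpt6R, against 8.07% of all protein-coding genes. The share of members among the strongest peaks was thus near the background.

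Prosalpha7, an alpha subunit of the outer ring, had by far the highest signal of the 48 genes. Its peak (2R, 9847197 to 9848590, summit 9847940) had a signal of 30490 and rank 49, and its ranks in replicates 1, 2 and 3 were 49, 46 and 49. The summit was intergenic, 104 bp upstream of the Prosalpha7 TSS and 121 bp from that of CG1671, so the peak cannot be given to either gene alone. Prosbeta7, a beta subunit of the inner ring, had a signal of 2940 and rank 253, with 239, 260 and 257 in the replicates. Its summit (3R, 5358218) lay in the 5′ UTR, 43 bp upstream of the nearest of its 2 TSSs. No TSS of another gene lay within 500 bp of the summit. The 3 replicates agreed more closely on these genes than on most others with a peak.

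The other core peaks were weaker and varied more among replicates. Of the beta subunits, Prosbeta1 (signal 614, rank 1065, replicates 870, 930 and 1337) and Prosbeta5 (signal 508.9, rank 1434, replicates 1587, 1707 and 1414) were followed by Prosbeta2 (signal 369.2, rank 2345, replicates 1537, 3167 and 2378). The 3 proteolytic subunits thus all had a peak, each shared with a neighbour, Rrp42, dgo and mRpL39. Prosbeta3, a subunit without a proteolytic site, had rank 5368 with 3242, 9941 and 6229 in the replicates. Of the alpha subunits, Prosalpha2 had rank 3291 (replicates 2599, 3073 and 3982), Prosalpha4 rank 3626 (3570, 7376 and 3100), Prosalpha3 rank 4187 (4498, 4078 and 3865) and Prosalpha6 rank 7352 (6127, 5282 and 11583). Prosalpha6 and Prosbeta3 each fell outside the 8708 strongest entries in 1 replicate.

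Peaks of the base were of even strength. The ATPase genes Rpt2, Rpt4, Rpt5 and Rpt6 had ranks of 4314, 3733, 2464 and 4364. Among the ubiquitin receptors, Rpn10 had rank 1698 (signal 454.4, replicates 1317, 1907 and 2069), Rpn1 rank 2082 (401.2, replicates 2220, 2760 and 1979) and Rpn13 rank 3162 (300.5, replicates 2977, 5816 and 2774). The scaffold subunit Rpn2 had rank 3906. All 8 base peaks were supported in the 3 replicates. Support required that one of the 8708 strongest entries of the replicate had its summit no more than 100 bp away.

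Lid peaks spread more widely. Rpn6, which in yeast clamps the lid to the core, led with a signal of 566.1 and rank 1200, with 1375, 1254 and 1182 in the replicates. Rpn3 and Rpn9 followed with ranks of 2832 and 2834, then Rpn5 with 3821 and Rpn12 with 4107. The deubiquitinase Rpn11 had rank 6133 (replicates 3480, 8412 and 7020) and its partner Rpn8 rank 7029 (replicates 3011, 10161 and 7680). Those values of Rpn8 spanned 3.375-fold, the widest span among the 29 genes with a peak, over which the median span was 1.537-fold.

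Support over replicates was high among the genes with a peak, as among all genes with one. The thresholded list keeps peaks of reproducible rank, so such support is partly built in. All 29 had an entry in each replicate list, and the strongest promoter summit was supported in 3 replicates for 23 of them and in 2 for the other 6 (Prosalpha6, Prosbeta3, Rpn5, Rpn8, Rpn11 and Rpt4R). Rpn5 and Rpn11 have a pair of thresholded summits in their promoter. Counting any promoter summit, 24 of the 48 genes were supported in all 3 replicates, 21 general and 3 paralogs, against 34.5% of all protein-coding genes. Of the genes with a peak these were 24 of 29 members and 4815 of 5985 protein-coding genes, a similar share.

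**Figure D2:**
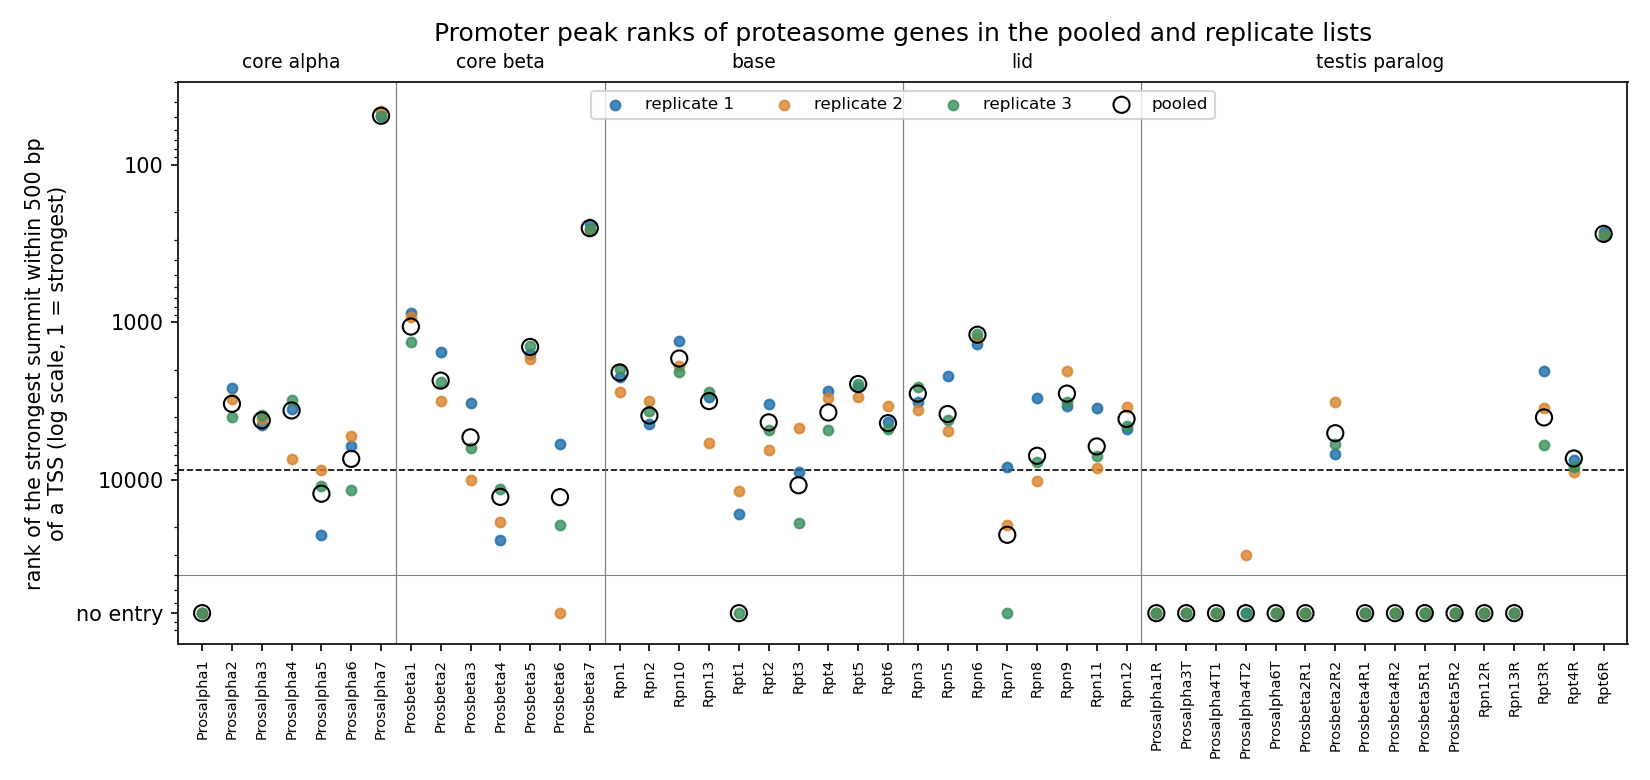
Rank of the strongest summit within 500 bp of a TSS (vertical axis, log scale, rank 1 at the top) for each of the 48 genes, in the pooled list (open circles) and the 3 replicate lists (filled points). The dashed line is rank 8708, where the thresholded list ends, and the lowest row marks genes with no entry. Prosalpha7, Prosbeta7 and Rpt6R stand above the rest in all 3 replicates, and 11 paralogs but only 1 general subunit have no entry in any list.

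The 7 general subunits without a promoter peak were Prosalpha1, Prosalpha5, Prosbeta4, Prosbeta6, Rpt1, Rpt3 and Rpn7. Outside the thresholded list, 6 of them had entries in at least 1 list. In the pooled list of 30000 entries, which holds peaks and background together, Rpt3 had rank 10811, Prosalpha5 rank 12230, Prosbeta4 rank 12803, Prosbeta6 rank 12859 and Rpn7 rank 22284. Rpt1, a single-exon gene inside CG17985, was in replicates 1 and 2 alone, at ranks 16332 and 11685. With any entry of the pooled list counted, 34 of the 48 genes had one, against 59.3% of all protein-coding genes, and these were 30 of 32 general subunits and the 4 paralogs that had a peak. Entries this low can be background, so they do not show binding at these genes.

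Prosalpha1 was the only general subunit with no entry in any of the 5 lists, and its sequence is duplicated. Every 31-base word within 500 bp of its TSS (971 of 971) occurs again in the reference genome. The same held for its paralog Prosalpha1R, which also had no entry: the genes lie side by side on 2R, from 7827303 to 7828678 and from 7830413 to 7831771. Among the other 46 genes the share of such words was at most 9.37% (Rpn3) and it was 0 for 43 of them. A read from either copy cannot be placed by sequence alone, and how such reads were handled is not given in the sources used here, so no value can be read for this pair. Without it, 25 of 31 general subunits and 4 of 15 paralogs had a promoter peak.

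Among the paralogs, all 3 Rpt (ATPase) genes had a promoter peak and 1 of 13 others had one, beside 42.9% of all protein-coding genes. The split was made after the values were seen and was not tested, and the 13 include Prosalpha1R, for which no value can be read. Rpt6R had a signal of 2447 and rank 275, with 267, 281 and 279 in the replicates. Its summit (3R, 30583744) lay 47 bp upstream of its TSS, with no TSS of another gene within 500 bp. Rpt3R (rank 4016, replicates 2036, 3506 and 6046) and Rpt4R (rank 7313, replicates 7528, 8935 and 8292) were weaker. The fourth paralog with a peak, Prosbeta2R2 (rank 5056, replicates 6895, 3210 and 5905), had its summit 93 bp from its own TSS and 36 bp from that of CG1116. At Rpt3R the summit was 110 bp downstream of its TSS and 91 bp from that of Alg12. Of the 4 paralog peaks, those of Rpt4R and Rpt6R alone had no TSS of another gene within 500 bp.

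The 12 paralogs without a promoter peak were Prosalpha1R, Prosalpha3T, Prosalpha4T1, Prosalpha4T2, Prosalpha6T, Prosbeta2R1, Prosbeta4R1, Prosbeta4R2, Prosbeta5R1, Prosbeta5R2, Rpn12R and Rpn13R. Their nearest thresholded summit was 4132 to 67522 bp away, with a median of 18580.5 bp, against 1111 to 12526 bp and a median of 4295 bp at the 7 general subunits without a peak. Prosalpha4T2 alone of the 12 had any entry, at rank 29873 in replicate 2. A set of 21 other genes with roles in the testis had a promoter peak in 5 cases (23.8%), a share close to that of the paralogs. Those with a peak were achi (rank 181), Cyt-c-d (rank 1016), bol (rank 2220), gdl (rank 3037) and mia (rank 4226). Genes without one included betaTub85D, dj, can and aly.

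Set beside their general partners, the paralogs were lower in all 3 replicates in 13 of 16 pairs and higher in all 3 in 2 pairs, and the remaining pair was Prosalpha1 with Prosalpha1R. A missing entry was counted as lower than any rank, and of the 13 paralogs only Prosbeta2R2 and Rpt4R had an entry in every replicate list. In 2 of the 13 pairs the partner was Prosbeta4, which had no promoter peak itself and ranks of 24117, 18460 and 11366. The general gene alone had a peak in 9 pairs, both had one in 3, the paralog alone in 1 and neither in 3. Rpt6R and Rpt3R were the paralogs that ranked higher. Both lie on 3R and their partners on the X. Rpt4 and Prosalpha4, also on the X, ranked above their paralogs on other chromosomes. Any effect of the chromosome on rank was not tested. Rpt6 had ranks of 4309, 3410 and 4775 in the replicates, against 267, 281 and 279 for Rpt6R, and the groups did not overlap. Rpt3 had 8939, 4655 and 18852, against 2036, 3506 and 6046 for Rpt3R, so the groups overlapped although the order was the same in each replicate. The 16 pairs rest on 12 general genes, of which 9 had a peak, and pairs that share a general gene are not independent.

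**Figure D3:**
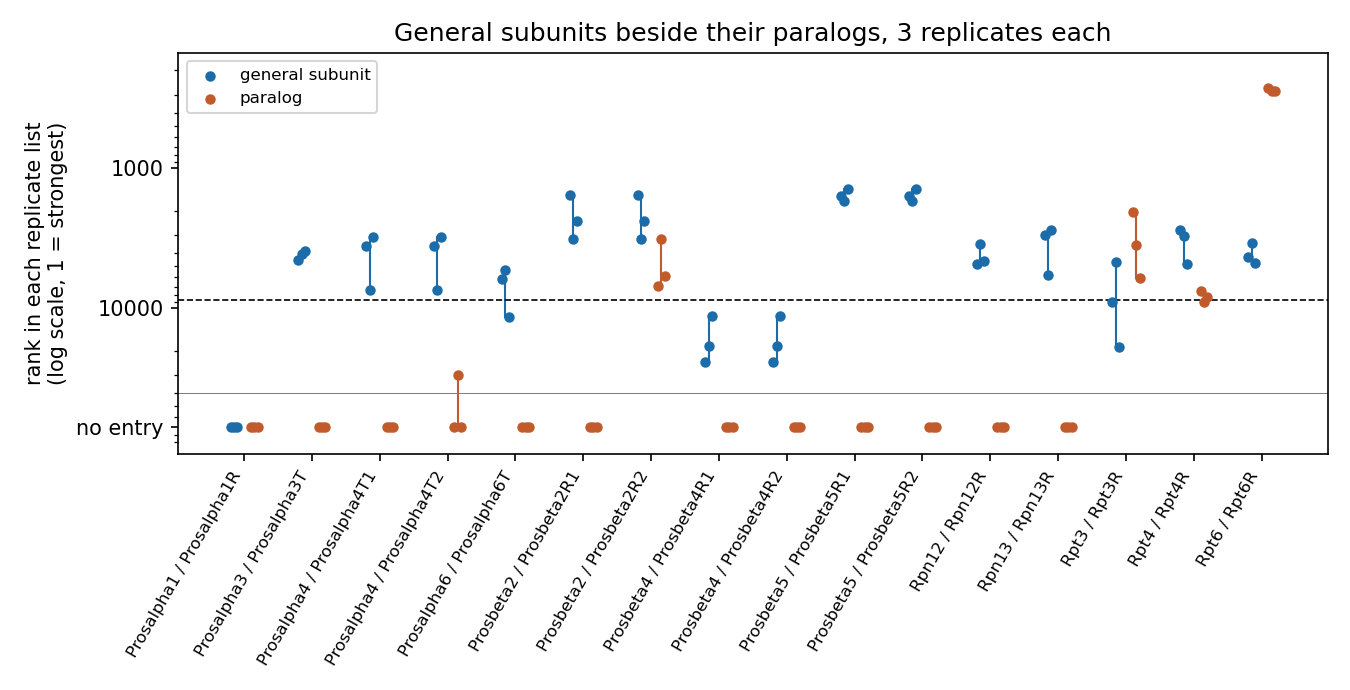
Rank in each of the 3 replicate lists (vertical axis, log scale, rank 1 at the top) for 16 pairs of a general subunit (blue) and its paralog (orange). Points are replicates, the line joins them, the dashed line is rank 8708 and the lowest row marks no entry. Rpt6R and Rpt3R lie above their partners in all 3 replicates, and 13 paralogs lie below theirs, 11 of them with no entry in at least 2 replicates.

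General subunits and paralogs also differed in where they lie. Another gene's TSS was within 1000 bp of a TSS of 22 of 32 general subunits and of 4 of 16 paralogs (6726 of all 13945 genes). Such genes had a promoter peak more often in the whole genome, in 59.8% of cases against 27.2% for genes without a near neighbour. Among genes with no near neighbour, 7 of 10 general subunits (70.0%) and 2 of 12 paralogs (16.7%) had a peak, and among genes with one, 18 of 22 (81.8%) and 2 of 4 (50%). The general subunits were above the matching background in both strata, and the paralogs were below it in both, in the second on 4 genes. Core genes with no near neighbour had a peak in 2 of 4 cases and lid and base genes in 5 of 6, and with one in 8 of 10 and 10 of 12. Single-exon genes were 4 of 32 general subunits and 6 of 16 paralogs, and 1 general subunit and 3 paralogs (Prosalpha4T1, Rpn12R and Rpn13R) lay inside another gene.

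Many member peaks could not be given to a single gene. Among genes with a peak, 20 of 29 members and 4021 of 5985 protein-coding genes had another gene's TSS within 1000 bp of their own, a similar share. For the counts by summit no share of all genes is given, so they are not read as particular to members. Of the 29 summits, 20 had the TSS of another gene within 500 bp, and at 9 the other TSS was the nearer. Prosalpha4 is the extreme case, with its summit 327 bp upstream of its TSS in an intron of kat80 and 26 bp from the kat80 TSS. Prosbeta2 (267 bp, with mRpL39 at 18 bp) and Rpn5 (278 bp, with Hat1 at 141 bp) were like it. At the other 26 genes the summit was within 200 bp of the member's own TSS, and the same held for 79.0% of all genes with a promoter peak. For 9 peaks no other gene's TSS lay within 500 bp: Prosalpha2, Prosbeta7, Rpn1, Rpn10, Rpt6, Rpn11, Rpn12, Rpt4R and Rpt6R. Of these, Prosbeta7 and Rpt6R were among the 3 strongest, and the Rpt6 summit lay in an intron of CG1801.

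Member summits lay close to and upstream of the start site, as did those of most genes with a promoter peak. The summit was upstream of the nearest TSS of the gene in 27 of 29 cases, against 86.2% of all genes with a promoter peak, and downstream at Rpn3 and Rpt3R. The median distance was 55 bp, against 83 bp for all genes. The deposited intervals were 146 to 1394 bp wide with a median of 424 bp, and Prosalpha7 had the widest.

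**Figure D4:**
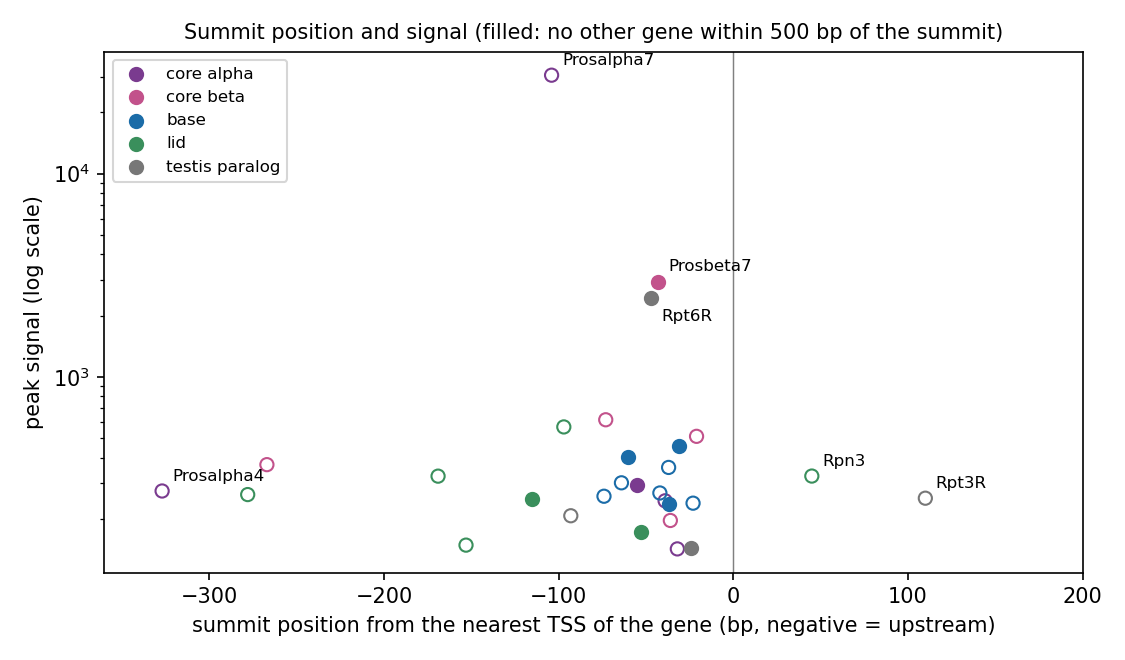
Position of the summit from the nearest TSS of the gene (horizontal axis, bp, negative upstream) and peak signal (vertical axis, log scale) for the 29 genes with a promoter peak, coloured by class. Open points have another gene's TSS within 500 bp of the summit. Only Rpn3 and Rpt3R lie downstream, and Prosalpha7, Prosbeta7 and Rpt6R have the 3 highest signals.

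Motifs were sought as exact letters on both strands within 100 bp of the summit, and counts are read beside the 5510 promoter summits of the thresholded list. TATCGATA (DRE) was at 6 of 29 member summits (20.7%, against 11.4% of promoter summits): Prosalpha3, Prosalpha6, Prosbeta1, Prosbeta2, Rpt5 and Rpn3. These are 4 of 10 core, 2 of 15 lid and base and 0 of 4 paralog summits. Within 200 bp DRE was at 4 of 10 core, 4 of 15 lid and base and 1 of 4 paralog summits, so this split depends on the window. GGTCACAC (Ohler 1) was at 5 (17.2%, against 9.6%): Prosalpha2, Prosbeta7, Rpn1, Rpn8 and Rpn9. No member summit had both. CAGCTG (Ohler 5, an E-box) was at 3 summits (10.3%, against 16.2%) and TATAAA at 10 (34.5%, against 28.7%). TGACNNNGC, the core of the antioxidant response element bound by Cnc, the fly homologue of the factor that induces proteasome genes in mammals, was at 4 summits (13.8%, against 6.41%): Prosalpha2, Prosbeta7, Rpn1 and Rpt6. Within 50 bp of the summit neither the antioxidant element nor Ohler 1 was in excess. The element was at 1 of 29 member summits (3.45%, against 3.65%) and Ohler 1 at 0 (against 5.7%). DRE was still at 5 (17.2%, against 7.4%) and TATAAA at 5 (17.2%, against 14.0%). Within 100 bp, at Prosbeta7 and Rpn1, the antioxidant element overlapped the Ohler 1 match, so those letters are counted under both names, as in 14.4% of all promoter summits with the element.

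The 3 strongest members lacked the letters that were common at the strongest promoters. GAACCAG or GAACTAG was within 100 bp of 57.8% of the 268 promoter summits of rank 300 or better and of 6.55% of all promoter summits, and of 0 of 29 member summits. Prosalpha7, Prosbeta7 and Rpt6R all rank within those 300. Within 200 bp Prosalpha7 had a match, and Prosbeta7 and Rpt6R had none.

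Start-site windows, from 250 bp before to 50 bp after the 5′ end of the gene, allow general subunits and paralogs to be compared whether or not they had a peak. DRE was in 12 of 32 general windows (37.5%) and 0 of 16 paralog windows, against 9.37% of all protein-coding genes. Ohler 1 was in 5 general windows (15.6%) and 0 paralog windows, against 7.71%. The 12 general genes with DRE were 9 of the 25 with a promoter peak and 3 of the 7 without one (Prosalpha5, Prosbeta6 and Rpn7). Rpt6R and the other 3 paralogs with a peak held neither motif in this window.

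Genes that serve the proteasome varied. Their counts are read beside the 42.9% of all protein-coding genes with a promoter peak. Of 9 genes for assembly, activators and associated factors, 5 had one (55.6%), a share not far from that background. PI31, a proteasome-binding regulator, had rank 144 (signal 11750, replicates 138, 150 and 143), the assembly chaperone Pomp rank 1031 and the deubiquitinase Uch-L5 rank 1268, while REG (an activator of the core), Sem1 (a small lid subunit), Usp14 and Ufd4 had none. Of 12 genes for ubiquitin supply and shuttling 9 had a peak (75.0%), among them Uba1 and TER94, and of 6 regulators of proteasome genes 5 (83.3%), with cnc at rank 2904 and Keap1 at rank 2211 and Hsf without one. Relatives of the lid, which share its protein folds, gave 6 of 8 (75.0%) for the COP9 signalosome and 9 of 16 (56.2%) for eIF3. The eIF3 genes were taken by symbol and include eIF3d2, eIF3f2 and eIF3g2, second copies by their symbols, none with a peak. Their share is thus not directly comparable with that of the general subunits. The 78.1% of the general subunits lay below the 81 of 88 genes (92.0%) for cytoplasmic ribosomal proteins, whose median rank over all 88 was 1388.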

How the data were processed

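Per the labels, the sonicated fragments measured 200 to 800 bp. The authors deposited narrowPeak lists. Per the deposited descriptions, each replicate list came from that replicate and a control alignment, the pooled list from the 3 replicates, and the thresholded list from these. The deposited signal value has no stated scale, so ranks within a list were used. Summit offsets were used as deposited by the authors. Not given in the sources used here: aligner, peak caller, and the threshold on IDR, which keeps peaks of reproducible rank. Without read counts the depth of each sample is unknown.

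TSSs came from Ensembl 115 (FlyBase 6.54) and sequences from RefSeq. The base was Rpt1 to Rpt6, Rpn1, Rpn2, Rpn10 and Rpn13, and the lid the other Rpn genes. Every member is named, and sequences follow the strongest peak of each class that could be printed. The members, lists and motifs were chosen with earlier results of these data known. Duplicated 31-base words were counted after the data were seen. Counting was tested on simulated data. Python 3.11.15, pandas 2.3.3 and scipy 1.17.1 were used.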

Additional observations from a re-analysis of the deposited data

How the results depend on the processing

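Of 81 alternative values, 70 stayed within 1.5 times the count (for median ranks, within the replicate SD). Leaving out 1 replicate gave 24 to 28 members with a promoter peak, 21 to 24 general, 8 to 9 core, 13 to 15 lid and base subunits and 3 to 4 paralogs. The share of all protein-coding genes was then 35.8 to 37.4%. Without genes that have a neighbouring TSS within 1000 bp, fewer genes remained: 9 of 22 members, 7 of 10 general, 2 of 4 core, 5 of 6 lid and base, and 2 of 12 paralogs. The share of all protein-coding genes without such a neighbour was 27.2%. The stronger 50% of peaks left 20 of 32 general subunits and 2 of 16 paralogs, beside 29.2% of all protein-coding genes. With a distance of 250 bp the median rank of core subunits was 6360, since Prosalpha4 and Prosbeta2 lost their peak. Within 50 bp of the summit Ohler 1 was at 0 of 29 member peaks (5.7% of promoter summits), TATAAA at 5 (14.0%) and the antioxidant element at 1 (3.65%), and within 200 bp GAACCAG or GAACTAG was at 1 (9.24%). No paired analysis was possible because the 3 replicates form a single group and no result comes from a test. Small groups limit every share: 1 of 16 paralogs is 6.25 points.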
